A study of Mus musculus with 35 samples.

Results

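The genes described here encode the proteins of the mitochondrial respiratory chain, measured in mouse liver 6 h after an injection of silica particles. They were taken by name: every gene whose array annotation begins with Nduf, Uqcr, Cox4, Cox5, Cox6, Cox7, Cox8 or Atp5, and Sdha, Sdhb, Sdhc and Sdhd, provided that a probe set of the array is assigned to that gene alone. This gave 90 of the 18193 genes with such a probe set, and 85 of them were bright enough to be tested. Of the 85, 33 belong to complex I, 4 to complex II, 8 to complex III, 15 to complex IV, 17 to complex V (the ATP synthase) and 8 are assembly factors of complex I that carry the Nduf prefix. A gene with several such probe sets is represented by its brightest one.

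BALB/c mice were assigned at random to 7 groups of 5 and injected intravenously. SP30, SP70 and SP300 are silica particles of different sizes. The doses were 10 mg/kg for SP30, 10, 20 or 40 mg/kg for SP70 and 10 or 200 mg/kg for SP300, and control mice received deionized water as vehicle. The left lateral lobe of each liver was put on 1 array. The design asks how the response depends on the dose of SP70, and how it depends on particle size, both when each size is given at 10 mg/kg and at the toxic dose of each size, namely 10 mg/kg of SP30, 40 mg/kg of SP70 and 200 mg/kg of SP300.

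The respiratory chain lies in the inner mitochondrial membrane. Complex I takes electrons from NADH and complex II from succinate, coenzyme Q and cytochrome c carry them onwards through complex III, and complex IV passes them to oxygen. The proton gradient built up by complexes I, III and IV drives the ATP synthase. Hepatocytes are rich in mitochondria and depend on this chain for the ATP used in urea and glucose synthesis. Complexes I, III, IV and V also have subunits encoded in mitochondrial DNA, and complex II has none. No probe set assigned to 1 mitochondrially encoded gene was found here, so all values below are for nuclear genes.

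Signals are the deposited linear intensities, and a change is the log2 fold change of the fitted group means with its standard error (SE) from limma, n = 5 mice per group. A gene is said to have risen or fallen when its adjusted p was under 0.05 over all 12678 genes tested. Array medians ran from 149 to 180 and pairs of arrays within a group had correlations of 0.941 to 0.956, computed over probe sets. In whole liver, fewer cells of a type and less RNA per cell cannot be told apart.

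The respiratory chain genes were lower after every toxic dose and after 20 mg/kg of SP70, by small amounts. After SP70 at 40 mg/kg, 77 of 85 had fallen and 0 had risen, against 28.8% of all genes tested that had fallen and 15.5% that had risen. The median change of the 85 was -0.34, and that of all genes -0.09. After SP30 at 10 mg/kg, 56 had fallen and 0 had risen, with 31.2% of all genes lower, 18% higher and medians of -0.23 and -0.12. After SP300 at 200 mg/kg, 36 had fallen and 0 had risen, with 18% of all genes lower, 12.6% higher and medians of -0.16 and -0.06. With each array centred on its own median, 18 had fallen, all of them among the 36, against 14.3% of all genes. The counts per complex given below are read against these shares of all genes. All comparisons with control share the control mice.

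The spread between mice was small beside the change at the highest SP70 dose. The median of the 85 genes in a single mouse, relative to the control mean, lay between -0.40 and -0.24 in the 5 mice given SP70 at 40 mg/kg, and between -0.03 and 0.04 in the 5 control mice. After SP300 at 200 mg/kg it lay between -0.21 and -0.07, and after SP30 between -0.41 and -0.10. The lowest SP30 mouse, replicate 1, stood at -0.41, and the other 4 between -0.25 and -0.10. In the deposited values all of these mice lay below all control mice. With quantile normalization the SP300 200 mg/kg mice (-0.157 to -0.027) overlapped the control mice (-0.036 to 0.034). The mice given SP70 at 40 mg/kg (-0.261 to -0.208) and SP30 (-0.261 to -0.158) still lay below all control mice. So did the mice given SP70 at 10 mg/kg (-0.148 to -0.061), which overlapped the control mice in the deposited values (-0.084 to 0.049). All 5 mice of the SP70 40 mg/kg group had signals below all 5 control mice in 68 of the 85 genes, against 20.5% of all genes tested. The same held for 39 genes after SP70 at 20 mg/kg (15.7% of all genes), 40 after SP30 (21.7%) and 29 after SP300 at 200 mg/kg (12.3%).

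**Figure D1:**
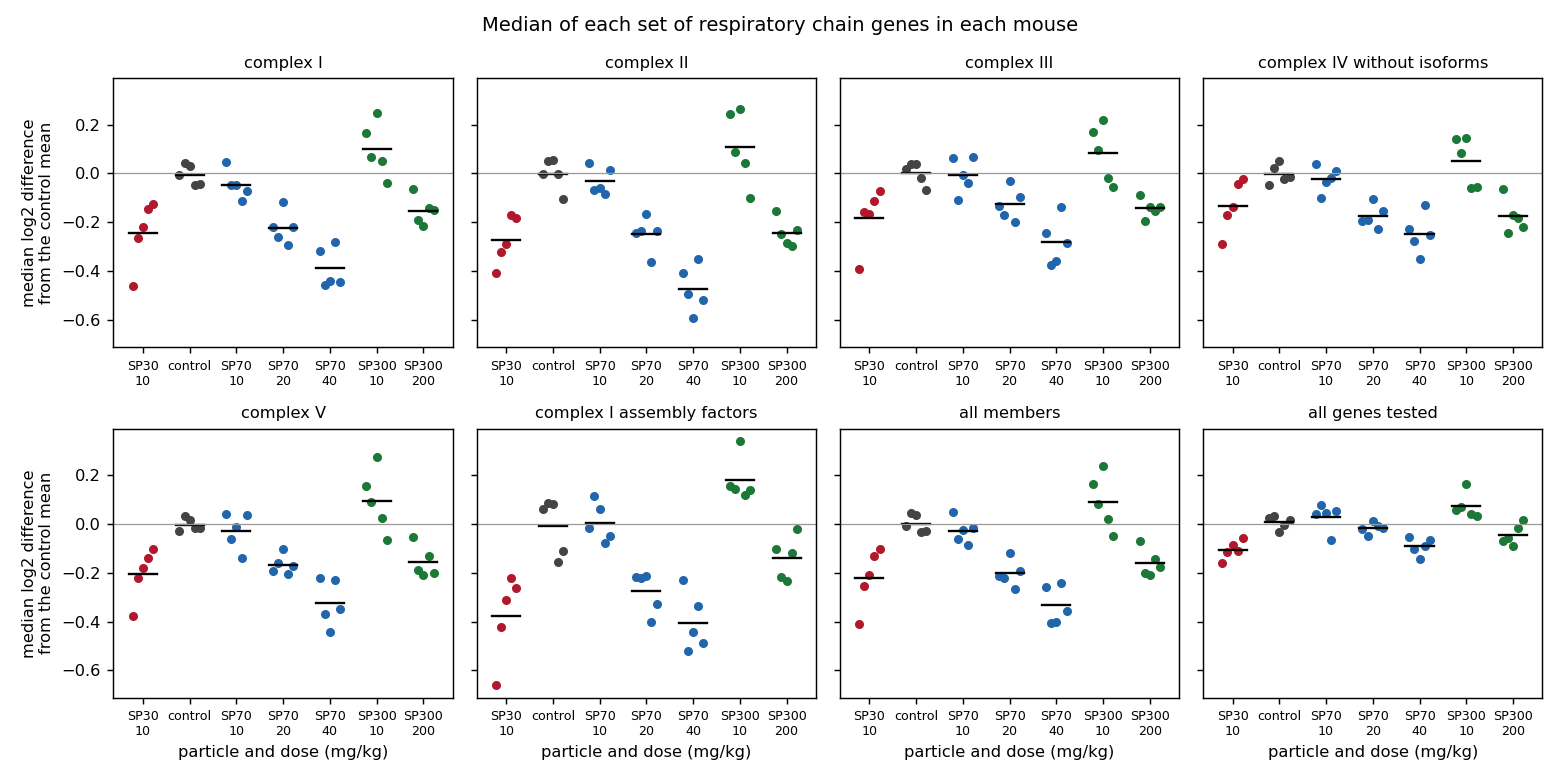
Each point is 1 mouse and shows the median over the genes of a complex of log2 signal minus the control mean; bars are means of 5 mice, and the x axis gives particle and dose in mg/kg. The 5 mice given SP70 at 40 mg/kg lie between -0.40 and -0.24 over all members, below all control mice, and the last panel shows the smaller shift of all 12678 genes tested.

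The start regions of 6 genes that fell, 1 from each complex and an assembly factor, are printed here because nuclear respiratory genes are known to carry sites for a small number of shared transcription factors. Each gene had the smallest adjusted p of its complex after SP70 at 40 mg/kg. The sequences are from RefSeq (GRCm38.p6), run 5′ to 3′ on the gene's own strand (the minus strand in all 6), and span 250 bases before to 50 bases after the start. Capitals mark matches to a motif of NRF1 (GCGCA, any base, then GCGC) or of ETS factors such as GABP (CCGGAAG), read on either strand.
Ndufa6, chr15:82354242-82354541: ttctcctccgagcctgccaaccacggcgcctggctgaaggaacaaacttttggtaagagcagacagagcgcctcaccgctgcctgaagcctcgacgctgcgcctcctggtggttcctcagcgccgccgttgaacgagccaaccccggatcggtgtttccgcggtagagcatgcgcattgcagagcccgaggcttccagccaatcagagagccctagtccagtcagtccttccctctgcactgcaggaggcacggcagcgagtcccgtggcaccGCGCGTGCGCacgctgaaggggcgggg
Sdhd, chr9:50603800-50604099: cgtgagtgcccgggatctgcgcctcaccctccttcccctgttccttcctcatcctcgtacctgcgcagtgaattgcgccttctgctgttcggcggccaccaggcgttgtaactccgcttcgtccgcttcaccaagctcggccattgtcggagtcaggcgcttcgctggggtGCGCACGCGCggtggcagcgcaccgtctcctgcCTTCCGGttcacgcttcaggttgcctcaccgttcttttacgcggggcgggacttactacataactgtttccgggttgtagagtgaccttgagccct
Uqcr11, chr10:80406772-80407071: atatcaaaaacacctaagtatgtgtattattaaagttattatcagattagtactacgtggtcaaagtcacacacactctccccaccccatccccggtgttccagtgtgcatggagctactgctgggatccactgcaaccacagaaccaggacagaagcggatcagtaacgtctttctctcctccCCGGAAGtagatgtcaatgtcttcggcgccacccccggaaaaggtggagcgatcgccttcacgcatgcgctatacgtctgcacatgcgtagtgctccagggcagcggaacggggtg
Cox6b1, chr7:30626065-30626364: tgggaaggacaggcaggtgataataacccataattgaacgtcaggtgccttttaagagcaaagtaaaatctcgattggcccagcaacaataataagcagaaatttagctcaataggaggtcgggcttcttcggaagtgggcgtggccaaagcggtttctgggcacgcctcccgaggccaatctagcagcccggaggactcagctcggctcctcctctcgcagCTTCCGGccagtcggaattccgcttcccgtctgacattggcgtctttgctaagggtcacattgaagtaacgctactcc
Atp5g2, chr15:102670998-102671297: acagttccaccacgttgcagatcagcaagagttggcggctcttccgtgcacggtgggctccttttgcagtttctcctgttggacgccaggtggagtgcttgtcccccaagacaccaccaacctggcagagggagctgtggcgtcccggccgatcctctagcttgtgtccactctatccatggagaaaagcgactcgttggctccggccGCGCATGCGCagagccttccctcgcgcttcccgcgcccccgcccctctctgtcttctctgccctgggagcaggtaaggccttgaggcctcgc
Ndufaf3, chr9:108567387-108567686: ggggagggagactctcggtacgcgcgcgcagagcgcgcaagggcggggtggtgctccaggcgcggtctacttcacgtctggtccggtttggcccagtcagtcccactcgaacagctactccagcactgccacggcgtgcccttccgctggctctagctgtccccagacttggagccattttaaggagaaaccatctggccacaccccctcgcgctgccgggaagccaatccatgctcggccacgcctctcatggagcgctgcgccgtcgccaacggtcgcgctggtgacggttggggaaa
The Ndufa6 and Atp5g2 windows each hold 1 NRF1 match, the Sdhd window an NRF1 and an ETS match, the Uqcr11 and Cox6b1 windows 1 ETS match each, and the Ndufaf3 window none.

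A window was found for 74 of the 90 genes. The NRF1 motif stood in 17 of them (23.0%), against 10.8% of the tested genes with a window and 5.19% of all genes in the table. The ETS motif stood in 19 (25.7%), against 18.6% and 9.93%. The motif of YY1 (AAGATGGC), another factor known from respiratory gene promoters, stood in 10 (13.5%), against 4.97% and 3.19%. At least 1 of the 3 motifs was present in 40 windows (54.1%), against 30.1% and 16.4%. Motifs were searched on both strands and may overlap. A match describes the sequence and is not evidence of binding.

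In complex I, the NADH dehydrogenase, nearly every subunit was lower at the highest SP70 dose. After SP70 at 40 mg/kg, 32 of its 33 tested subunits had fallen, with a median of -0.37 and a range from -0.70 to -0.12. Ndufa6, an accessory subunit of the matrix arm, had signals of 15750, 13473, 13808, 15333 and 13708 in the mice given SP70 at 40 mg/kg, against 21667, 21011, 22144, 21509 and 20433 in control mice. The highest treated mouse was well below the lowest control mouse. Ndufa6 fell by 32.6% (-0.57 ± 0.06, adjusted p 4.14e-09). It also fell after SP30, to 15310 ± 1382 against 21353 ± 654 in control mice (SD, n = 5), and with SP300 at 200 mg/kg, to 16344 ± 852.

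Ndufb10, an accessory subunit of the membrane arm, had the largest change of any complex I subunit after SP70 at 40 mg/kg. Its signals were 11095, 10030, 9817, 11118 and 10517, against 17596, 19660, 17716, 15650 and 15242 in control mice. It fell by 38.6% (-0.70 ± 0.09, adjusted p 2.33e-08), and no treated mouse reached the control range. Ndufs5, an accessory subunit on the side of the intermembrane space, had 13633, 10541, 11133, 12854 and 11268, against 17967, 18923, 19941, 18300 and 17480 in control mice (-0.64 ± 0.07, adjusted p 9.97e-09).

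The core subunits of complex I include those that carry its flavin and its iron-sulfur clusters. All 6 that were tested were lower after SP70 at 40 mg/kg, with a median of -0.41, and so were 26 of 27 accessory subunits, with a median of -0.37. Ndufs7, a core subunit with an iron-sulfur cluster next to the coenzyme Q site, had 10566, 9726, 9247, 10598 and 9866 after SP70 at 40 mg/kg, against 15518, 15445, 15774, 13837 and 14234 in control mice (-0.58 ± 0.08, adjusted p 3.03e-07). Ndufs1, which holds clusters of the NADH module, changed by -0.40 ± 0.07 (adjusted p 9.11e-06). Ndufs8, a core iron-sulfur subunit, had 29010, 19519, 26555, 28809 and 22026, against 31441, 31140, 30054, 28545 and 37626 (-0.35 ± 0.13, adjusted p 0.025), with overlapping groups. The call was lost under quantile normalization (adjusted p 0.0868). It was also lost when control replicate 5 or replicate 2 or 5 of the SP70 40 mg/kg group was left out.

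After SP30, 26 of 33 complex I subunits had fallen (median -0.24), and after SP300 at 200 mg/kg 14 had (median -0.16). Ndufa13, also known as GRIM-19, had signals of 23890, 23265, 24360, 24524 and 26324 after SP30 and 31688, 24634, 25398, 25342 and 28108 after SP300 at 200 mg/kg, against 29461, 33935, 31924, 33111 and 30497 in control mice. The SP30 mice were all below the control mice, and 1 SP300 mouse was within the control range. Ndufa13 had changed by -0.38 ± 0.08 after SP30 (adjusted p 0.00011) and by -0.24 ± 0.08 after SP300 at 200 mg/kg (adjusted p 0.0171). The SP300 call was lost with centred arrays (adjusted p 0.1) and without SP300 200 mg/kg replicate 2 (adjusted p 0.0594). The exception after SP70 at 40 mg/kg was Ndufb1, a small membrane arm subunit, at -0.12 ± 0.15 (adjusted p 0.545). Its probe set was the dimmest of the tested complex I subunits, with a mean signal of 477 over all arrays.

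The assembly factors, which build complex I without staying in it, held the largest changes of all 85 genes at the highest SP70 dose. Ndufaf3 and Ndufaf4 act together at an early step of assembly. Ndufaf4 had 4101, 2488, 3597, 3372 and 2158 after SP70 at 40 mg/kg, against 4672, 5704, 5609, 4698 and 5881 in control mice. It fell by 42.1% (-0.79 ± 0.14, adjusted p 1.08e-05), and the groups did not overlap. Ndufaf3 had 1453, 1455, 1465, 1489 and 1258, against 2268, 2454, 2425, 2384 and 2217 in control mice, and fell by 39.3% (-0.72 ± 0.11, adjusted p 2.87e-06).

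Both genes also fell after SP30 at 10 mg/kg. Ndufaf3 had 944, 1474, 1410, 1739 and 1431 after SP30, against the same control mice, and fell by 41.3% (-0.77 ± 0.11, adjusted p 7.59e-07). Ndufaf4 fell by 39.4% (-0.72 ± 0.14, adjusted p 3.12e-05). After SP300 at 200 mg/kg, no assembly factor was among the 36 genes that had fallen. Ndufaf3 stood at -0.29 ± 0.11 (adjusted p 0.0517) and Ndufaf4 at -0.33 ± 0.14 (adjusted p 0.0631). Ndufaf6, another early factor, had 2713, 2408, 2425, 3050 and 2650 in that group, against 3369, 3208, 3527, 3655 and 2637 in control mice (-0.30 ± 0.12, adjusted p 0.0517). Of the 8, 7 fell after SP70 at 40 mg/kg, and SP30 had 5 that fell. Ndufaf2, which adds the last module, had -0.13 ± 0.13 after SP70 at 40 mg/kg (adjusted p 0.43).

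**Figure D2:**
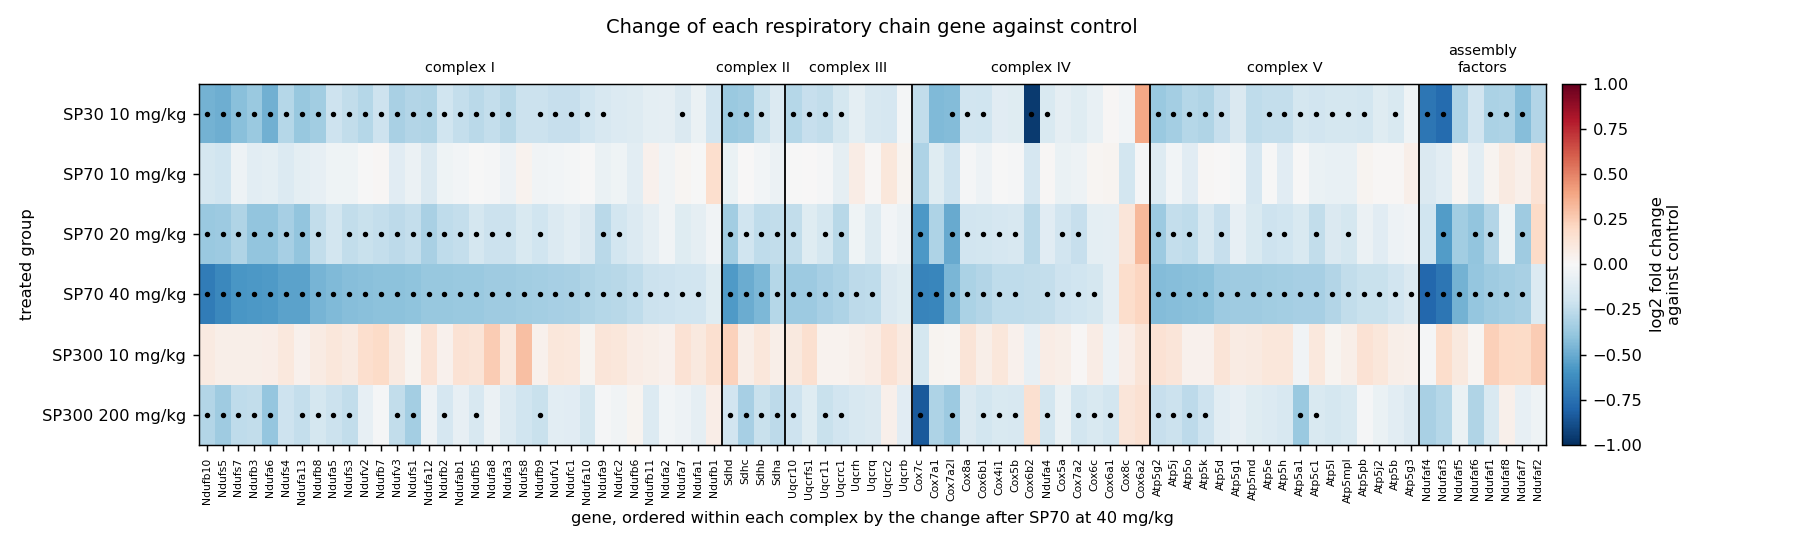
Colour gives the log2 fold change against control of each of the 85 tested genes (x axis, by complex) in each treated group (y axis), and a dot marks an adjusted p under 0.05. The SP70 40 mg/kg row carries 77 dots and the SP70 10 mg/kg and SP300 10 mg/kg rows carry 0.

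Complex II, succinate dehydrogenase, links the chain to the tricarboxylic acid cycle, and all 4 of its genes fell after SP70 at 20 and 40 mg/kg and after SP300 at 200 mg/kg. Sdhd, a membrane anchor, had 12901, 10779, 10975, 13875 and 11271 after SP70 at 40 mg/kg, against 17014, 18960, 18147, 17611 and 16597 in control mice (-0.57 ± 0.07, adjusted p 1.09e-07). Sdhc, the other anchor, had 7749, 6917, 6778, 7965 and 6814, against 10520, 10270, 10964, 10179 and 9139 (-0.50 ± 0.08, adjusted p 1.65e-06). Both anchors were below the control range in all 5 treated mice. After SP300 at 200 mg/kg the call of Sdhd was lost under 12 alternatives, among them centred arrays (adjusted p 0.132) and the replicate block (adjusted p 0.0595), and that of Sdhb with centred arrays (adjusted p 0.0522). Sdhc lost its call after SP70 at 20 mg/kg under 8 alternatives and after SP300 at 200 mg/kg when its probe sets were averaged (adjusted p 0.086).

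Sdhb, the iron-sulfur subunit, had 25446, 25311, 22543, 26405 and 24835 after SP70 at 40 mg/kg, against 35106, 36211, 35722, 32113 and 31222 in control mice (-0.45 ± 0.07, adjusted p 9.67e-07). Sdha, the flavoprotein that oxidizes succinate, had 20183, 21260, 19333, 22435 and 22788, against 23654, 25895, 26368, 26702 and 26603 (-0.29 ± 0.06, adjusted p 0.000397). After SP30, Sdhd, Sdhc and Sdhb had fallen (-0.37 ± 0.07, -0.35 ± 0.08 and -0.22 ± 0.07), whereas Sdha was at -0.14 ± 0.06 (adjusted p 0.0697). When all probe sets of Sdha were averaged, among them a dim one with a mean signal of 167, its value after SP70 at 40 mg/kg missed the threshold (-0.15, adjusted p 0.126), as did that after SP300 at 200 mg/kg (adjusted p 0.632).

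Complex III, the cytochrome c reductase, had 6 of 8 subunits lower after SP70 at 40 mg/kg, 4 after SP30 and 3 after SP300 at 200 mg/kg. Uqcr11, a small subunit, had 29372, 27246, 27468, 31008 and 30438 after SP70 at 40 mg/kg, against 37131, 38135, 37444, 36210 and 34415 in control mice. It fell by 20.7% (-0.33 ± 0.06, adjusted p 1.28e-05) and the groups did not overlap. Uqcr10, another small subunit, had 16434, 15518, 15321, 16609 and 15911 after SP70 at 40 mg/kg, against 18129, 21824, 21299, 22411 and 19322 in control mice (-0.36 ± 0.07, adjusted p 2.81e-05). Uqcrfs1, the Rieske iron-sulfur protein, changed by -0.36 ± 0.06 (adjusted p 1.71e-05). The 2 core proteins differed in their result, Uqcrc1 at -0.31 ± 0.07 (adjusted p 0.000479) and Uqcrc2 at -0.14 ± 0.08 (adjusted p 0.146); the difference between these genes was not tested. Uqcrb, which helps to bind coenzyme Q, stood at -0.12 ± 0.05 (adjusted p 0.057).

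Complex IV, cytochrome c oxidase, holds several subunits that exist as tissue isoforms, and Ndufa4, named for complex I, is counted here because it is now placed in complex IV. Of its 11 tested genes other than those isoforms, 10 had fallen after SP70 at 40 mg/kg (median -0.25), 4 after SP30 (median -0.12) and 9 after SP300 at 200 mg/kg (median -0.18). Of all genes tested, 28.8%, 31.2% and 18% had fallen in these groups, and their median after SP30 was also -0.12. With centred arrays 2 of the 11 had fallen after SP30 and 2 after SP300 at 200 mg/kg, against 28.9% and 14.3% of all genes. These were among the 4 and the 9. Cox6a1, Cox6b1, Cox4i1, Cox7a2 and Ndufa4 were among those that lost the call after SP300 at 200 mg/kg (adjusted p 0.123, 0.101, 0.256, 0.0681 and 0.144). Cox6b1, which faces the intermembrane space, had 47744, 43783, 42516, 48400 and 45172 after SP70 at 40 mg/kg, against 53806, 56225, 57433, 55678 and 55155 in control mice. It fell by 18.3% (-0.29 ± 0.05, adjusted p 2.43e-05), and no treated mouse overlapped the control range. Cox4i1, the common isoform of subunit 4, had 36730, 36251, 35439, 42554 and 38656, against 44218, 46064, 45079, 46114 and 44602 in control mice (-0.26 ± 0.06, adjusted p 0.000495).

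The common isoforms Cox8a, Cox7a2 and Ndufa4 also fell after SP70 at 40 mg/kg, whereas Cox6a1 did not pass the threshold. Cox8a had 17555, 14908, 14710, 18540 and 17350, against 21791, 22214, 20840, 19838 and 18783 in control mice (-0.32 ± 0.07, adjusted p 0.000334). Cox7a2 had 56896, 56702, 51786, 59674 and 54782, against 59629, 66755, 66496, 63288 and 65343, with the highest treated mouse just above the lowest control mouse (-0.20 ± 0.05, adjusted p 0.00199). Ndufa4 had 39419, 36174, 33190, 38224 and 36305, against 40912, 42301, 46048, 44080 and 42250 in control mice (-0.24 ± 0.06, adjusted p 0.00136).

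Cox7a2l, which promotes the joining of complexes III and IV, had 6805, 6632, 6765, 7329 and 5947 after SP70 at 40 mg/kg, 5822, 6870, 7870, 6350 and 7376 in the SP30 mice, and 7260, 6389, 7117, 7857 and 7097 after SP300 at 200 mg/kg. Control mice had 8997, 9647, 9821, 8495 and 9054. All 15 of these treated mice were below all 5 control mice. The changes were -0.46 ± 0.09, -0.43 ± 0.09 and -0.37 ± 0.09, with adjusted p of 0.000109, 0.000221 and 0.00255. Cox6a1 had signals of 56043, 55172, 58996, 60023 and 55565 after SP300 at 200 mg/kg, against 62816, 62780, 68489, 64157 and 66079 in control mice (-0.18 ± 0.06, adjusted p 0.0128; 0.123 with centred arrays). Its value after SP70 at 40 mg/kg was -0.09 ± 0.06 (adjusted p 0.223).

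Cox7c is represented by the brighter of 2 probe sets of its own, with a mean signal of 268. Its signals were 118, 262, 159, 277 and 165 after SP300 at 200 mg/kg, against 279, 412, 380, 211 and 511 in control mice (-0.84 ± 0.22, adjusted p 0.00306). The groups overlapped. After SP70 at 40 mg/kg it had 171, 261, 176, 214 and 254 (-0.66 ± 0.22, adjusted p 0.0121), and that call was lost without control replicate 5 (adjusted p 0.0557).

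Of the isoforms of heart, muscle and testis that were tested, Cox7a1, Cox6a2 and Cox6b2 had mean signals of 276, 211 and 194 over all arrays, near the filter of 165, and Cox8c had 784. Cox7a1 and Cox6a2 belong to heart and skeletal muscle, Cox6b2 and Cox8c to testis. Cox7a1 had 286, 93.9, 265, 207 and 205 after SP70 at 40 mg/kg, against 410, 373, 234, 291 and 316 in control mice (-0.65 ± 0.25, adjusted p 0.0307). The groups overlapped, and without replicate 2 of that treated group the adjusted p was 0.17. It also missed the threshold without control replicate 1 or 2 (adjusted p 0.0837 and 0.0695). Cox6b2 had 133, 163, 179, 17.6 and 137 after SP30, against 241, 210, 192, 204 and 232 (-0.96 ± 0.32, adjusted p 0.0128). Without the mouse at 17.6 the change was -0.47 and the adjusted p 0.0937. Cox6a2 had 165, 202, 248, 321 and 160 after SP70 at 40 mg/kg, against 102, 195, 166, 215 and 273 in control mice (0.21 ± 0.22, adjusted p 0.463). Cox8c had 689, 1066, 998, 719 and 846, against 718, 943, 652, 672 and 821 (0.17 ± 0.14, adjusted p 0.322).

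Of the 5 genes that could not be tested, Cox4i2, Cox7b2 and Cox8b are further isoforms, and their signals ran from 11.4 to 169, from 2.27 to 53.0 and from 9.15 to 99.1 over the 35 arrays. Ndufa4l2, which is known to be induced by low oxygen, ran from 20.0 to 191 and passed the filter of 165 on 2 arrays. Ndufb4, an accessory subunit of complex I, ran from 4.09 to 153 on the probe set assigned to it alone.

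Complex V, the ATP synthase, had all 17 tested genes lower after SP70 at 40 mg/kg, 13 after SP30 and 6 after SP300 at 200 mg/kg. The F1 part holds the catalytic head and the central stalk, and its 5 genes had a median of -0.33 after SP70 at 40 mg/kg. The 12 genes of the membrane part and peripheral stalk had a median of -0.35. Atp5a1, the alpha subunit of the head, had 28332, 24785, 23991, 28257 and 26112 after SP70 at 40 mg/kg, and 24907, 23012, 27595, 26808 and 25728 after SP300 at 200 mg/kg. Control mice had 32111, 34697, 33418, 33776 and 31279. Neither treated group reached the control range, and the changes were -0.33 ± 0.06 (adjusted p 6.32e-05) and -0.37 ± 0.06 (adjusted p 3.1e-05). Atp5b, the beta subunit that makes ATP, changed by -0.20 ± 0.05 after SP70 at 40 mg/kg (adjusted p 0.00363).

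Atp5g1, Atp5g2 and Atp5g3 encode the same mature protein, the c subunit of the rotating ring. Atp5g2 had 12164, 11480, 11507, 12636 and 11156 after SP70 at 40 mg/kg, against 15484, 16234, 16682, 15822 and 15172 in control mice (-0.43 ± 0.06, adjusted p 6.56e-07). Atp5g1 had 21152, 20122, 18501, 22583 and 21558, against 24601, 29852, 27327, 26683 and 24766 (-0.36 ± 0.09, adjusted p 0.000829). Atp5g3 had 53959, 52722, 46081, 54319 and 51665, against 57280, 57185, 57762, 56896 and 56485 (-0.14 ± 0.06, adjusted p 0.0404), and that call was lost under 10 of the alternatives. In all 3 genes the 5 treated mice lay below the 5 control mice. The 3 changes were not tested against each other.

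**Figure D3:**
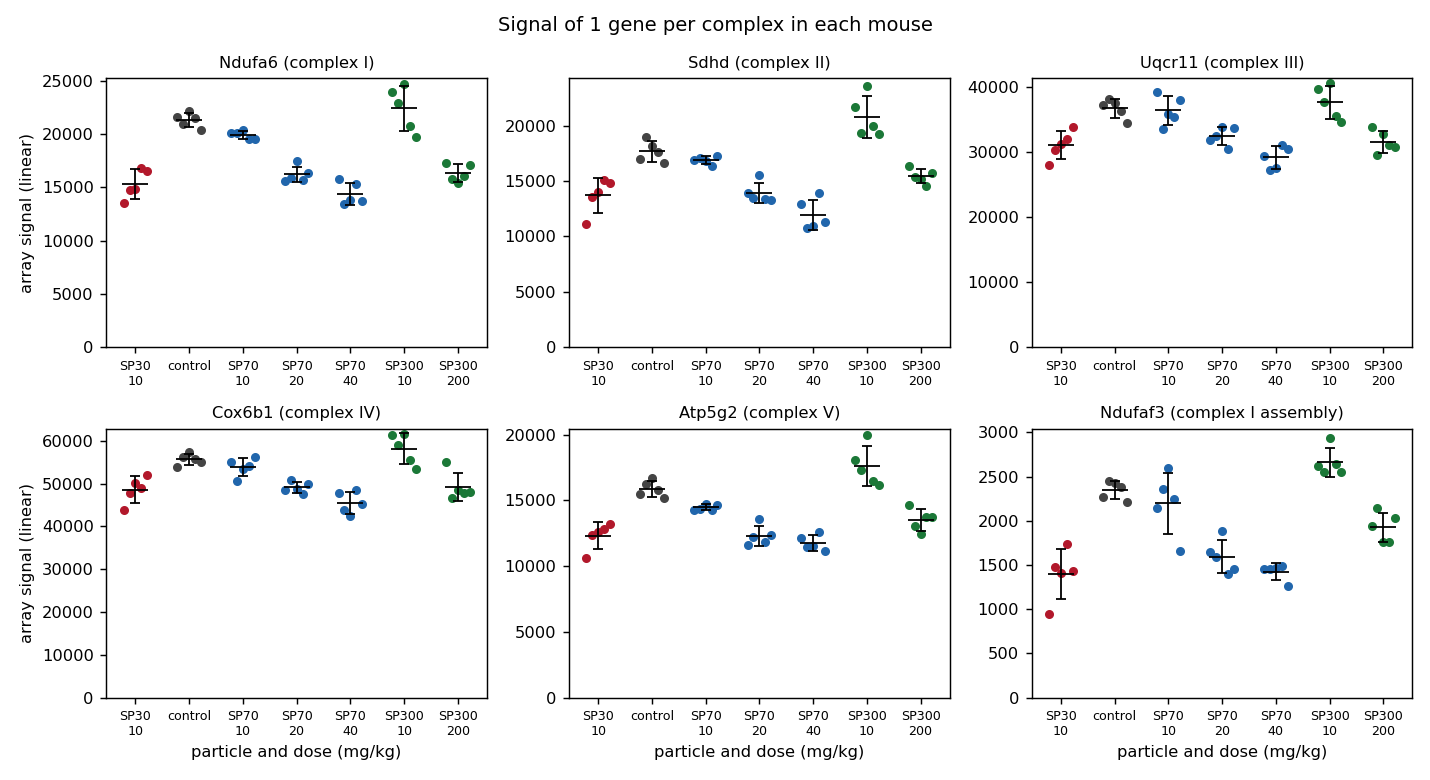
Points are array signals (linear scale from 0) of single mice for 1 gene of each complex and an assembly factor; the short line and error bar are the mean and SD of 5 mice. Ndufa6 averages 14414 after SP70 at 40 mg/kg, against 21353 in control mice.

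Over the doses of SP70, 79 of 85 genes had a falling linear slope past the threshold and 0 a rising one, against 30.3% of all genes that fell. At 10 mg/kg, 0 of 85 genes passed the threshold against control, while 5.69% of all genes had fallen and 12.4% had risen. At an unadjusted p under 0.05 in limma, 4 of the 85 were lower and 0 higher, below the 11.5% and 17.9% of all genes. Quantile normalization gave 22 lower, against 11.1% of all genes, and centring of the arrays 10, close to the 11.2% of all genes. The count was 1 without control replicate 5 or without SP70 10 mg/kg replicate 3. At 20 mg/kg, 49 had fallen, against 20.9% of all genes, and at 40 mg/kg 77. The group means fell in the order 10, 20 and 40 mg/kg in 75 of 85 genes. The median change of all genes against control fell in the same order, at 0.01, -0.03 and -0.09, and the share of all genes in that order is not given here.

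Ndufa6 averaged 21353 ± 654 in control mice, 19959 ± 390 at 10 mg/kg, 16218 ± 738 at 20 mg/kg and 14414 ± 1046 at 40 mg/kg (SD, n = 5). Its 5 mice at 10 mg/kg lay below all 5 control mice, as did those for Ndufs5 and Atp5g2; 3 of 85 genes did so, against 3.42% of all genes. Ndufs5 at that dose had the smallest adjusted p, 0.0572, with a change of -0.20 ± 0.07. Ndufaf4 had 5313 ± 581 in control mice, 4829 ± 837 at 10 mg/kg, 4607 ± 80.1 at 20 mg/kg and 3143 ± 803 at 40 mg/kg. Its change at 20 mg/kg was -0.20 ± 0.14 (adjusted p 0.26). Ndufaf3 had already changed by -0.56 ± 0.11 at 20 mg/kg (adjusted p 0.00014).

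Between the ends of the dose range, SP70 at 40 mg/kg against SP70 at 10 mg/kg, 72 of 85 genes were lower, against 25.3% of all genes, and 1 was higher, against 5.21%. The higher one was Cox8c, with 864 ± 166 at 40 mg/kg and 668 ± 87.2 at 10 mg/kg (0.35 ± 0.14, adjusted p 0.0464). The median of all genes in this comparison was -0.13, and quantile normalization set it to 0.00. The median of the 85 genes was then -0.12, with 34 lower and 1 higher, against 13.5% and 11.3% of all genes. Centring the arrays gave 45 lower and 1 higher, against 16.1% and 8.85%.

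The particle sizes were also compared at the equal dose of 10 mg/kg, and the counts there depended on the scaling of the arrays. SP30 gave 46 of 85 genes lower than SP70 at 10 mg/kg, and 0 higher, where 23.5% of all genes were lower. The medians were -0.20 for the 85 genes and -0.13 for all genes. Here too scaling moved the median of all genes, to -0.01. With quantile normalization the 85 genes had a median of -0.09 and 23 were lower, against 14.3% of all genes. With centred arrays 10 (11.8%) were lower, which is no more than the 13.4% of all genes. SP30 replicate 1 carried part of the count, which was 27 without it.

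Ndufaf3 had the largest called change of the 85 in this comparison, with 1400 ± 287 after SP30 and 2201 ± 346 after SP70 at the same dose (-0.66 ± 0.11, adjusted p 3.63e-05). Ndufaf4 had 3211 ± 364 after SP30 and 4829 ± 837 after SP70 (-0.58 ± 0.14, adjusted p 0.00135). Ndufa6 had 15310 ± 1382 after SP30 and 19959 ± 390 after SP70 (-0.39 ± 0.06, adjusted p 1.81e-05).

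Against SP300 at 10 mg/kg, SP30 at that dose had 73 of 85 genes lower and 0 higher, where 35.5% of all genes were lower. SP70 at 10 mg/kg had 11 lower than SP300 at 10 mg/kg, close to the 10.2% of all genes. Sdhd was among the 11, with 16887 ± 338 after SP70 and 20776 ± 1868 after SP300 (-0.29 ± 0.07, adjusted p 0.00392), and so was Ndufa12, an accessory subunit, with 19223, 20654, 20000, 15944 and 18931 after SP70 and 21614, 21539, 26150, 23530 and 22728 after SP300 (-0.29 ± 0.07, adjusted p 0.00352). The count was 6 without SP70 10 mg/kg replicate 4 or without SP300 10 mg/kg replicate 3, 20 without SP300 10 mg/kg replicate 5, 26 with quantile normalization (12.9% of all genes) and 33 with centred arrays (14.4% of all genes).

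SP300 at 10 mg/kg against control passed the threshold in 0 of 85 genes, while 0.245% of all genes had fallen and 0.923% had risen. At an unadjusted p under 0.05 in limma, 12 of the 85 were higher and 0 lower, near the 10.8% and 3.27% of all genes. Ndufaf1, an assembly factor, had the smallest adjusted p, 0.103, at 0.24 ± 0.07. Sdhd had 21691, 19325, 23616, 20010 and 19237 after SP300 at 10 mg/kg, above the control range in all 5 mice (0.23 ± 0.07, adjusted p 0.125). All 5 mice lay above all control mice in 5 of 85 genes, against 2.34% of all genes. The median of the 85 genes was 0.09, beside 0.06 for all genes, and it was -0.01 with quantile normalization. Single mice ranged from -0.05 to 0.24.

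Among the toxic doses, SP70 at 40 mg/kg had the lowest median change. Its difference from SP300 at 200 mg/kg passed the threshold in 38 of 85 genes, all lower, against 10.4% of all genes. The count was 23 without SP70 40 mg/kg replicate 2, 25 without replicate 3 of that group, 24 without SP300 200 mg/kg replicate 1 and 25 in a fit of only these groups. Ndufaf4 had 3143 ± 803 after SP70 at 40 mg/kg and 4235 ± 526 after SP300 at 200 mg/kg (-0.46 ± 0.14, adjusted p 0.0175). Ndufb10 had 10516 ± 596 and 13962 ± 1187 (-0.41 ± 0.09, adjusted p 0.00111). The 38 genes were made up of 22 of complex I, 2 of complex II, 1 of complex III, 10 of complex V and 3 assembly factors, and no complex IV gene was among them.

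SP30 at 10 mg/kg and SP70 at 40 mg/kg differed past the threshold in 1 of these genes. Of the 85, 1 was higher after SP30, against 3.69% of all genes, and 0 were lower, against 2.04%. At an unadjusted p under 0.05 in limma, 21 were higher and 1 was lower, against 9.97% and 8.66% of all genes. The gene past the adjusted threshold was Sdhb, with 29223 ± 2288 after SP30 and 24908 ± 1440 after SP70 at 40 mg/kg (0.23 ± 0.07, adjusted p 0.0341). The median difference was 0.11. The 95% confidence interval of a gene ran from -0.02 to 0.25 at the median of its limits, so differences of that size were not resolved. The count was 14 without SP30 replicate 1, 6 without SP70 40 mg/kg replicate 4, 0 without any 1 of 7 other mice, 0 with quantile normalization and 4 with centred arrays, the last beside 4.72% of all genes.

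SP30 against SP300 at 200 mg/kg gave 11 genes lower (12.9%) and 3 higher (3.53%). Both shares were below those of all genes, of which 17.5% were lower and 11.6% higher. Quantile normalization gave 30 lower (35.3%) and 2 higher, against 18.9% and 12.1% of all genes. Centred arrays gave 14 lower (16.5%), below the 19.7% of all genes. The 3 higher genes were Cox7c (0.59 ± 0.22, on its dim probe set), Cox6a1 (0.20 ± 0.06) and Atp5a1 (0.19 ± 0.06). Among the 11 lower ones were 4 assembly factors, Ndufaf3 (-0.48 ± 0.11), Ndufaf4 (-0.40 ± 0.14), Ndufaf7 (-0.34 ± 0.10) and Ndufaf8 (-0.36 ± 0.10). The 14 calls numbered 7 without SP30 replicate 1, 9 without SP30 replicate 2 and 8 without SP300 200 mg/kg replicate 1.

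Within the SP300 doses, 66 of 85 genes were lower at 200 mg/kg than at 10 mg/kg, against 22.3% of all genes, and 0 were higher. Ndufs8 had 28465, 26669, 23378, 27756 and 32281 at 200 mg/kg and 40141, 41266, 40797, 37082 and 35466 at 10 mg/kg (-0.50 ± 0.13, adjusted p 0.0025). The median of all genes was -0.11 and moved to -0.01 under both scalings. The median of the 85 genes was then -0.10 with quantile normalization, with 33 lower (14.7% of all genes), and -0.15 with centred arrays, with 29 lower (14.6% of all genes).

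Across the 85 genes, the change went along with the brightness of the probe set in some groups, given here as a description. Spearman's rho between mean signal and log2 fold change was 0.458 for SP70 at 40 mg/kg, 0.563 for SP30 and 0.0863 for SP300 at 200 mg/kg. The 8 genes with a mean signal above 48037 had a median change of -0.20 after SP70 at 40 mg/kg, and the other genes one of -0.35. Points share the arrays, and whether bright probe sets understate a change was not tested.

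The genes have 80 further probe sets of their own that passed the filter. After SP70 at 40 mg/kg, 57 of these were lower and 0 higher, with a median of -0.35. After SP30, 47 were lower and 1 higher, and after SP300 at 200 mg/kg 33 were lower and 0 higher. These counts come from a separate fit of probe sets, and the shares of all probe sets in it are not given here. The higher one after SP30 was a dim probe set of Ndufa12, with a mean signal of 183 (0.54 ± 0.21), while the probe set used for Ndufa12 fell (-0.30 ± 0.07); averaging the probe sets of Ndufa12 lost that call (adjusted p 0.483).

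Other mitochondrial lists are read against the same shares of all genes, 28.8% lower and 15.5% higher after SP70 at 40 mg/kg, 31.2% lower and 18% higher after SP30, and 18% lower and 12.6% higher after SP300 at 200 mg/kg. Of 10 electron carriers, 8 were lower after SP70 at 40 mg/kg, 8 after SP30 and 6 after SP300 at 200 mg/kg. Etfb, part of the flavoprotein that passes on electrons from fatty acid oxidation, changed by -0.42 ± 0.07 after SP70 at 40 mg/kg, and Sqor, which feeds electrons from sulfide into coenzyme Q, by -0.50 ± 0.09. Of 12 genes of coenzyme Q synthesis, 7 were lower and 1 higher after SP70 at 40 mg/kg, 8 lower and 0 higher after SP30, and 4 lower and 0 higher after SP300 at 200 mg/kg. Coq8a, a kinase-like protein needed for that synthesis, changed by -2.24 ± 0.15, -1.82 ± 0.15 and -1.51 ± 0.15 in these groups.

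Of 42 assembly factors without the prefixes above, 26 were lower and 1 higher after SP70 at 40 mg/kg, 25 lower and 1 higher after SP30, and 11 lower and 4 higher after SP300 at 200 mg/kg. Cox20, which helps to mature a complex IV subunit, changed by -0.76 ± 0.09 after SP70 at 40 mg/kg, and Sdhaf4, which assists complex II, by -0.68 ± 0.08. Of 9 genes for the ATP synthase inhibitor and for carriers, 5, 6 and 4 were lower in these groups and 0 higher. Atpif1, the inhibitor of the ATP synthase, changed by -0.93 ± 0.14, -0.84 ± 0.14 and -0.45 ± 0.14, and Vdac1, a channel of the outer membrane, by -0.57 ± 0.09, -0.39 ± 0.09 and -0.50 ± 0.09.

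Of 18 tricarboxylic acid cycle genes, 13 were lower and 1 higher after SP70 at 40 mg/kg, 6 lower and 2 higher after SP30, and 8 lower and 1 higher after SP300 at 200 mg/kg. The 6 of 18 (33.3%) after SP30 are close to the share of all genes. Dlat, a subunit of pyruvate dehydrogenase, changed by -1.01 ± 0.13 after SP70 at 40 mg/kg. Of 76 genes of the mitochondrial ribosome, 51 were lower after SP70 at 40 mg/kg, 51 after SP30 and 18 after SP300 at 200 mg/kg, with 2, 3 and 2 higher. The 18 of 76 (23.7%) after SP300 at 200 mg/kg are not far from the 18% of all genes. Mrpl15 of its large subunit changed by -0.79 ± 0.07, -0.80 ± 0.07 and -0.36 ± 0.07. Of 20 import genes, 11, 8 and 6 were lower in these groups and 0, 0 and 1 higher. Timm8a1, a small chaperone of the intermembrane space, changed by -0.78 ± 0.09, -0.77 ± 0.09 and -0.63 ± 0.09. Of 12 chaperones and proteases, 6, 3 and 4 were lower and 1, 1 and 1 higher, the 3 (25%) after SP30 being below the share of all genes. Oma1, a protease of the inner membrane, changed by -0.83 ± 0.12, -0.79 ± 0.12 and -0.59 ± 0.12.

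Of 15 regulators of respiratory genes, 6 were lower and 3 higher after SP70 at 40 mg/kg, and 6 lower and 4 higher after SP30. These counts are not far from the shares of all genes. After SP300 at 200 mg/kg, 6 were lower and 1 higher. Ppargc1a, a coactivator of mitochondrial biogenesis, changed by -2.07 ± 0.26, -2.13 ± 0.26 and -1.63 ± 0.26 in the 3 groups. Tfam, which packs mitochondrial DNA and is needed for its transcription, changed by -0.73 ± 0.09 after SP70 at 40 mg/kg and by -0.95 ± 0.09 after SP30. Sirt3, a deacetylase of mitochondrial proteins, changed by -0.89 ± 0.11, -0.90 ± 0.11 and -0.58 ± 0.11.

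Of 11 genes linked to the hypoxia factor HIF, 8 were higher and 1 lower after SP70 at 40 mg/kg, 6 higher and 2 lower after SP30, and 2 higher and 4 lower after SP300 at 200 mg/kg. The higher shares were 72.7%, 54.5% and 18.2%, against 15.5%, 18% and 12.6% of all genes. Ldha, which makes lactate, rose by 0.78 ± 0.08, 0.82 ± 0.08 and 0.50 ± 0.08. Adm, a peptide hormone gene induced by low oxygen, was at 4.10 ± 0.41 after SP70 at 40 mg/kg, and Pdk1, a kinase that slows pyruvate dehydrogenase, at -0.67 ± 0.11 after SP300 at 200 mg/kg. Of 8 genes of the defence against reactive oxygen, 5, 3 and 0 were lower and 1 was higher in each of these groups. Sod2, the manganese superoxide dismutase of the matrix, was the higher one, with changes of 0.47 ± 0.07 in the SP70 40 mg/kg group and 0.82 ± 0.07 in the SP30 group.

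**Figure D4:**
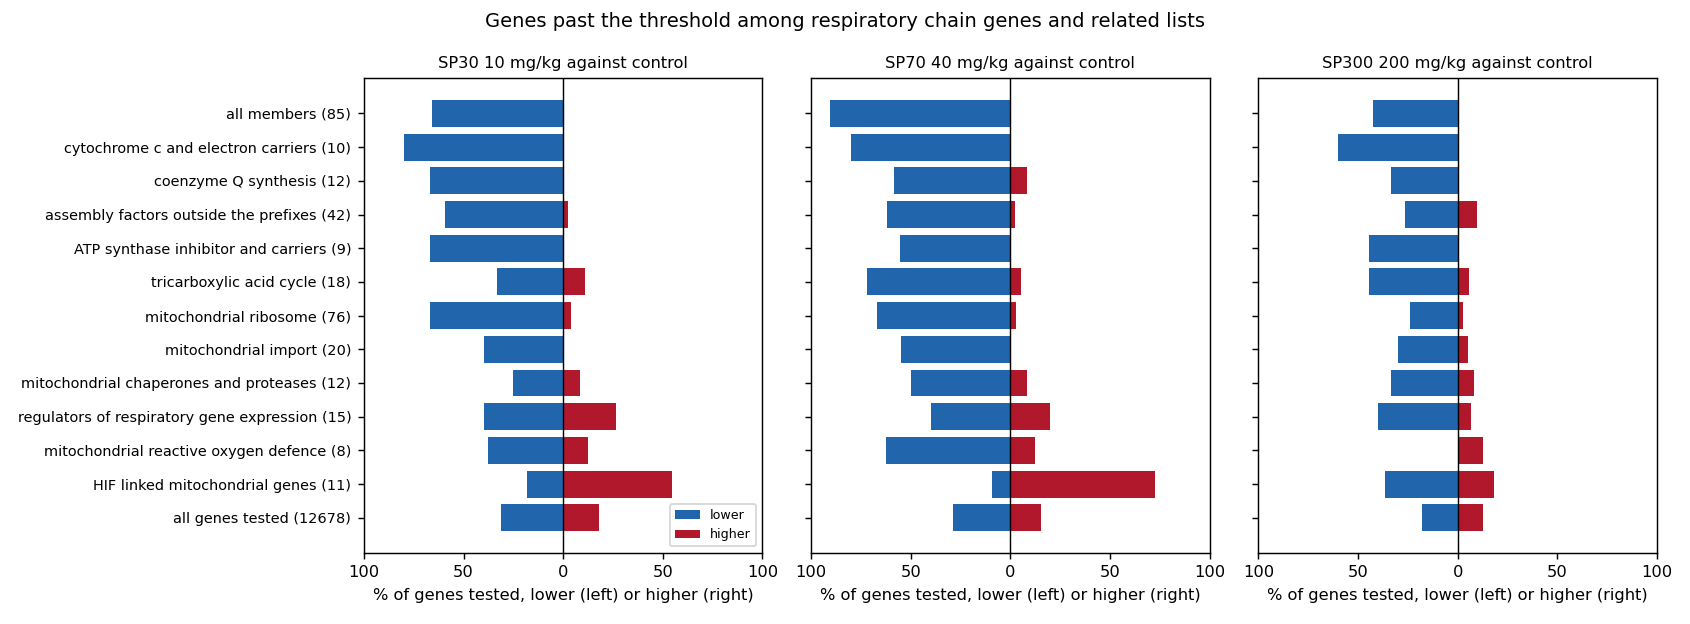
Bars give, for each list (number of genes tested in brackets), the percentage of genes that were lower (left of 0) or higher (right of 0) against control at an adjusted p under 0.05, for the 3 toxic doses. The top bars stand for 56 of the 85 respiratory chain genes after SP30, 77 after SP70 at 40 mg/kg and 36 after SP300 at 200 mg/kg, and the bottom bars give the same for all 12678 genes.

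Markers of liver cell types also differed between groups, not only in those where respiratory chain genes fell. Their part in the results above was not tested. The 9 hepatocyte markers had a summed signal with a median of 536717 after SP70 at 40 mg/kg, 570334 after SP30 and 495667 after SP300 at 200 mg/kg, against 560689 in control mice. The ranges of the SP70 40 mg/kg group (465174 to 544710) and the control group (537594 to 576584) overlapped. Of these markers 3, 2 and 5 were lower and 0, 1 and 1 higher. Of all genes 28.8%, 31.2% and 18% were lower and 15.5%, 18% and 12.6% higher in these groups. The counts of 3 and 2 of 9 are close to or below those shares. Counts of the other markers are read against the same shares. The 11 markers of Kupffer cells, the macrophages of the liver, summed to 2057, 11264 and 2054 at the median, against 36140 in control mice, with 10, 9 and 10 lower.

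The 8 neutrophil markers summed to 41466, 56692 and 17005 in the same order of groups, against 1991 in control mice, with 6, 7 and 4 higher. The 8 monocyte markers summed to 57444, 58190 and 48722, against 40000 in control mice, and 8, 8 and 7 were higher. The 11 endothelial markers summed to 11265, 9906 and 19068, against 21863 in control mice, with 8, 8 and 5 lower and 1, 1 and 2 higher. The 2 erythroid markers tested summed to 5889, 5957 and 4603, against 8799 in control mice, and 2 were lower after SP300 at 200 mg/kg. After SP70 at 10 mg/kg the Kupffer sum was 13662 and the neutrophil sum 21807. In that group 0 respiratory chain genes passed the threshold in the deposited values, and 22 were lower with quantile normalization. How the marker sums relate to these counts was not tested.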

How the data were processed

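RNA from the left lateral liver lobe of 35 mice, 7 groups of 5, was measured on 1 array each. Values are intensities deposited by the authors, made with MAS5 per the submitters' processing notes; no source used here gives the scaling. Here 64 control probe sets were left out, 12.5 (the 10th percentile) was added, and log2 was taken. Probe sets that passed 165, the median value, on 5 or more arrays were kept (26864 of 45101). Of the 45101, 34945 have 1 gene, 932 several and 9160 none. For each gene the single-gene probe set with the highest mean log2 signal was tested.

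Group means of all 35 arrays were fitted with limma 3.58.1 in R 4.3.3 (lmFit, eBayes with a trend), and p-values were adjusted by Benjamini-Hochberg over 12678 genes, with a threshold of 0.05. The fit was tested on simulated data. Fold changes on the log2(value + 12.5) scale understate changes of dim genes. The number of arrays limits the precision. Replicates are separate mice per the labels. Alternatives were the pseudocount, the filter, quantile normalization, array centring, the choice of probe set, a replicate block, a fit of only the groups compared, and leaving out each mouse. The members and lists were chosen with earlier results of these data known. Members were named for the 4 highest and 4 lowest called changes against control in each group (all 5 treated mice on 1 side of the control mean), the smallest adjusted p of each complex after each toxic dose, the 4 Sdh genes, isoform sets, and the 2 highest and 2 lowest in each other comparison; from other lists, up to 2 genes with the smallest adjusted p. Atp5b, Ndufaf1, Ndufaf2, Ndufaf7, Ndufaf8, Ndufb1, Ndufb4, Ndufs1, Ndufs7, Uqcrb, Uqcrc1, Uqcrc2 and Uqcrfs1 were chosen after their values were seen.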

Additional observations from a re-analysis of the deposited data

Results flagged for a closer look

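In 17 of the 301 gene-and-group or list-and-group combinations examined, 1 mouse lay far from the other 4 of its group; chance alone gives about 1 in 20. Replicate 1 of the SP30 group was low for Ndufa12 (14100, the others 17100 to 18500) and for Ndufb10 (10000, the others 12300 to 13200), and replicate 4 was low for Cox6b2 (17.6, the others 133 to 179).

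In the SP70 groups, replicate 5 at 40 mg/kg was low for Ndufaf3 (1260, the others 1450 to 1490). At 20 mg/kg, replicate 4 was low for Atp5g3 (52900, the others 56200 to 57100), and replicate 3 was high for Cox8a (19600, the others 17500 to 18100) and for Sdhd (15500, the others 13300 to 13900). At 10 mg/kg, replicate 2 was low for Cox8a (18700, the others 20600 to 21200). Replicate 4 at that dose was high for Ndufa4l2 (110, the others 26.5 to 32.3) and low in the median of all genes tested (-0.0668 log2, the others 0.0404 to 0.0778).

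In the SP300 groups, replicate 1 at 200 mg/kg was high for Cox6b1 (55000, the others 46600 to 48600). At 10 mg/kg, replicate 3 was high for Ndufaf3 (2940, the others 2550 to 2650), in the median of the assembly factors (0.34, the others 0.118 to 0.155) and in the median of all genes tested (0.163, the others 0.0348 to 0.0716). Replicate 5 was high for Ndufa4l2 (191, the others 27.2 to 44.7). Among control mice, replicate 1 was low for Sdha (23700, the others 25900 to 26700) and replicate 3 for Cox4i2 (20.2, the others 98.2 to 168).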

How the results depend on the processing

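The counts of genes past the threshold against control moved by less than 1.5 times under the other settings after SP70 at 20 and 40 mg/kg and after SP30, and stayed at 0 after SP300 at 10 mg/kg. After SP300 at 200 mg/kg (36), centred arrays gave 18. After SP70 at 10 mg/kg (0), a filter at 2 times the value gave 1, quantile normalization 22, centred arrays 10, the mean of all probe sets 2 and a fit of only the groups compared 1. For SP30 against SP70, both at 10 mg/kg (46), quantile normalization gave 23, centred arrays 10 and only the groups compared 27. For SP70 against SP300, both at 10 mg/kg (11), these gave 26, 33 and 5. For SP30 against SP70 at 40 mg/kg (1), no filter, quantile normalization and only the groups compared gave 0, and centred arrays 4. For SP30 against SP300 at 200 mg/kg (14), quantile normalization gave 32, the mean of all probe sets 8 and only the groups compared 6. For SP70 at 40 mg/kg against SP300 at 200 mg/kg (38), only the groups compared gave 25. For 40 against 10 mg/kg of SP70 (73), quantile normalization gave 35 and centred arrays 46, and for 200 against 10 mg/kg of SP300 (66) they gave 33 and 29. The cause of these moves was not tested.

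Leaving out 1 mouse at a time gave, against control, 0 to 1 genes after SP70 at 10 mg/kg, 40 to 51 at 20 mg/kg, 74 to 78 at 40 mg/kg, 38 to 63 after SP30, 0 after SP300 at 10 mg/kg and 24 to 41 at 200 mg/kg. It gave 27 to 52 for SP30 against SP70 and 63 to 76 against SP300, all at 10 mg/kg, and 6 to 20 for SP70 against SP300. Among toxic doses it gave 0 to 14 for SP30 against SP70, 7 to 16 for SP30 against SP300 and 23 to 41 for SP70 against SP300. It gave 67 to 76 for the doses of SP70, 53 to 67 for those of SP300 and 75 to 80 for the slope.

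A fit with the replicate number as a block gave 0, 49 and 76 genes against control at 10, 20 and 40 mg/kg of SP70, 55 after SP30, and 0 and 35 at 10 and 200 mg/kg of SP300. It gave 41, 72 and 10 for the comparisons at 10 mg/kg, 1, 13 and 33 for those of toxic doses, 72 and 65 for the doses of SP70 and SP300 and 78 for the slope. Same-numbered mice did not deviate together (mean correlation -0.000692, from -0.104 to 0.111 over 105 pairs of arrays). Whether they were handled together cannot be told from these correlations.

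Of 1699 values of named genes under alternatives, 1588 kept direction and call, 110 lost the call and 1 changed sign: Sdha after SP70 at 20 mg/kg, at 0.0028 when its probe sets, 1 of them dim, were averaged. The calls of Cox4i1 and Sdhd after SP300 at 200 mg/kg were lost under 13 and 12 alternatives. The number of arrays limits the precision of all values.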

Other observations

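Probe sets assigned to several genes were not used above. After SP70 at 40 mg/kg, both probe sets shared by Ndufb4 and its copies Ndufb4b and Ndufb4c were lower (-0.48 ± 0.08, adjusted p 4.55e-06, and -0.48 ± 0.08, adjusted p 2.05e-05, limma). Those of Ndufs6 and Ndufs6b (-0.29 ± 0.06, adjusted p 0.000272), of Ndufs5 and its pseudogene (-0.44 ± 0.07, adjusted p 1.62e-06) and of Ndufab1 and its pseudogene (-0.33 ± 0.11, adjusted p 0.0131) were also lower. Of 2 probe sets shared by Ndufa11 and Ndufa11b, the brighter was lower (-0.36 ± 0.09, adjusted p 0.00102), and the dim one, with a mean signal of 203, was at 0.16 ± 0.21 (adjusted p 0.594). A dim probe set shared by Ndufb2 and Adck2, with a mean signal of 154, was at -0.28 ± 0.54 (adjusted p 0.734). After SP300 at 200 mg/kg no shared probe set passed the threshold. The smallest adjusted p there was 0.0825, for Ndufs5 and its pseudogene. The shares of all probe sets are not given here.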
